A study of Bubalus bubalis with 36 samples.

Results

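The miR-199 and miR-214 microRNAs (miRNAs) were followed across 6 fat depots of the water buffalo (Bubalus bubalis). The members were all rows of the deposited count table with a bovine name of miR-199 plus one letter, or of miR-214, with or without an arm suffix. This gave 5 of 1682 rows: miR-199a-5p, miR-199a-3p, miR-199b, miR-199c and miR-214. All 5 passed the filter on low counts that left 667 features for testing. The names of miR-199b, miR-199c and miR-214 carry no arm.

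Small RNA was sequenced from adipose tissue of 6 buffaloes, with 1 library from each depot of each animal and 36 libraries in all. The subcutaneous depots were back (BSAT), sternal (SSAT) and inguinal (IAT) fat, and the visceral ones came from the omentum (OAT), the pericardium (PCAT) and around the kidney (PRAT). Per the labels, weaning was at 3 months of age, fattening began at 15 months and slaughter was at 20 months in every animal, and no genetic change or treatment is named. A library is named here by its depot and animal number, so that SSAT1 is the sternal library of animal 1. These are libraries of whole tissue, so fewer cells of a type and less RNA per cell cannot be told apart.

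A miRNA is cut from a hairpin precursor, and either arm of the hairpin, called -5p or -3p, can be loaded into the silencing complex that represses matching messenger RNAs. In mammals miR-214 and a miR-199a precursor are made from a shared long transcript that lies opposite a dynamin gene, while miR-199b lies opposite a different dynamin gene. All of them are known chiefly from mesenchymal cells, such as fibroblasts and smooth muscle cells, and from work on fibrosis, bone formation and the differentiation of fat cells. The 3p arms of miR-199a and miR-199b are identical or nearly so in mammals, so counting can divide reads between rows of that arm. Whether the miR-199b row is of that arm is not given by its name. The value of any miR-199 row alone is therefore uncertain.

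Library totals ran from 9484589 to 13920998 counts with a median of 12525362. Levels are CPM, counts relative to a common library size, on library totals scaled by the trimmed mean of M-values (TMM), without correction for length, since each mature miRNA is counted as a unit. Among the 389 tested features with bovine names, miR-199b ranked 65, miR-199a-3p 66, miR-214 120, miR-199c 131 and miR-199a-5p 183 by mean CPM. The lowest count of a member in any library was 30, for miR-199a-5p. Defining stroma, endothelial and adipocyte miRNAs were present in every depot. The summed CPM of 12 stroma and smooth muscle rows ran from 47229 to 84984 in subcutaneous and from 39111 to 131247 in visceral libraries, with none of these rows at 0 in all libraries of a depot.

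The first question was which members differ between subcutaneous and visceral fat. The answer differed between the rows: miR-199b, miR-199a-5p and miR-214 were higher in subcutaneous fat, and miR-199a-3p and miR-199c did not pass the test. That is 3 of 5 members called, all higher, where 16.5% of all tested features were called, 7.2% higher and 9.3% lower (edgeR quasi-likelihood test, Benjamini-Hochberg adjusted p under 0.05). The median log2 difference was 0.83 over the 5 members and -0.09 over all 667 features. This fit does not use that the libraries come from the same 6 animals. With the animal as a block, 2 of 5 members were called, beside 109 of 667 features. miR-214 was then not called (0.95, edgeR adjusted p = 0.0551). The 5 rows stood at very different levels and with different spreads, as the plot of each library shows.

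**Figure D1:**
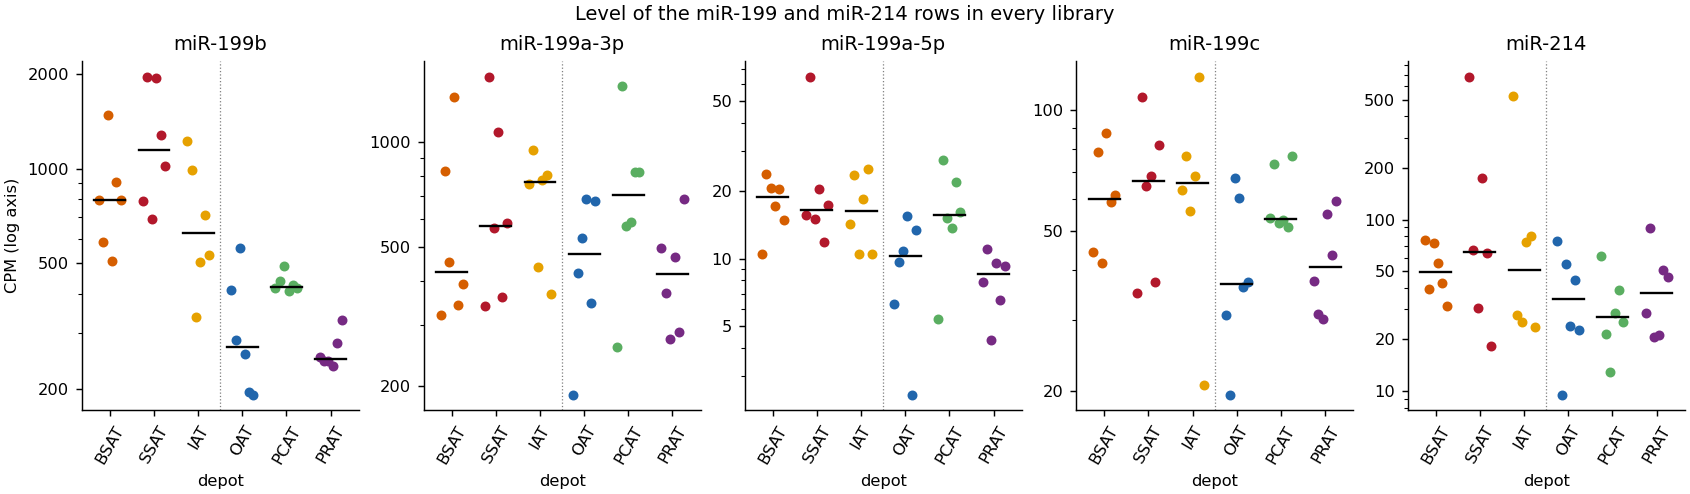
Level of each row in CPM (log axis, a separate scale per panel) by depot. Each point is 1 library, the black bar is the median of 6 animals, and the dotted line divides subcutaneous from visceral depots; miR-199b runs from 339 to 1955 CPM in subcutaneous and from 192 to 560 CPM in visceral libraries, while miR-214 is set apart by SSAT1 at 680 and IAT1 at 525 CPM.

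miR-199b, the row with the highest mean CPM of the 5, had the largest share of its variation between depots. Its lowest, median and highest levels were 510, 796 and 1480 CPM in back fat, 694, 1146 and 1955 CPM in sternal fat, and 339, 623 and 1227 CPM in inguinal fat. In the visceral depots they were 192, 272 and 560 CPM in omental, 410, 422 and 491 CPM in pericardial, and 237, 249 and 332 CPM in perirenal fat. In 14 of 18 subcutaneous libraries the level was above every visceral library, and BSAT4, IAT3, IAT4 and IAT6 lay within the visceral range. The pericardial and perirenal libraries formed narrow bands that did not overlap each other. The edgeR test between these depots was not passed (0.71 ± 0.31 in log2 with SE, adjusted p = 0.219). How many other features separate these depots in this way, or the classes to the degree above, was not counted.

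The fitted class difference of miR-199b was 1.47 ± 0.18 (log2, SE; edgeR adjusted p 2.67e-07), and the row was higher in subcutaneous fat in 6 of 6 animals. It kept this call in all 58 alternative fits, in which the difference ran from 1.19 to 1.63. Within single animals the difference in mean log2 CPM ran from 0.79 in animal 3 to 1.73 in animal 2.

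miR-199a-5p is the lesser arm of the miR-199a hairpin in these libraries. Its lowest, median and highest levels were 10.5, 18.7 and 23.7 CPM in back, 11.8, 16.5 and 64.2 CPM in sternal, and 10.5, 16.4 and 25 CPM in inguinal fat. They were 2.49, 10.2 and 15.5 CPM in omental, 5.41, 15.7 and 27.3 CPM in pericardial, and 4.34, 8.55 and 11 CPM in perirenal fat. The classes overlapped: 9 of 18 visceral libraries were below every subcutaneous one, and SSAT2 alone was above every visceral one.

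The class difference of miR-199a-5p was 0.83 ± 0.23 (log2, SE; edgeR adjusted p = 0.0145), with higher values in 6 of 6 animals. No single animal or library ended this call when left out. It was lost without the sternal depot (0.65, adjusted p = 0.120), without the perirenal depot (0.58, adjusted p = 0.175), with library totals as the only scaling (0.60, adjusted p = 0.0703), with limma on log2(RPM + 1) (0.57, adjusted p = 0.0728) and with counts summed per animal and class, without the animal as a block (0.76, adjusted p = 0.133) or with it (0.70, adjusted p = 0.0687).

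miR-199a-3p, from the other arm of the same hairpin, was about as abundant as miR-199b. Its lowest, median and highest levels were 319, 423 and 1339 CPM in back, 340, 576 and 1533 CPM in sternal, and 367, 768 and 949 CPM in inguinal fat. They were 189, 476 and 686 CPM in omental, 258, 704 and 1443 CPM in pericardial, and 272, 419 and 685 CPM in perirenal fat. The classes overlapped almost wholly, with 1 subcutaneous library above PCAT2, the highest visceral one at 1443 CPM. The next visceral level was 817 CPM, in PCAT6. The class difference was 0.34 ± 0.24 (log2, SE; edgeR adjusted p = 0.348), with 5 of 6 animals higher in subcutaneous fat and a difference in mean log2 CPM of -0.72 in animal 6.

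miR-199c is a further row of the family in the bovine naming. Its lowest, median and highest levels were 41.7, 60.2 and 87.6 CPM in back, 35, 66.7 and 108 CPM in sternal, and 20.7, 65.8 and 121 CPM in inguinal fat. They were 19.6, 36.9 and 67.8 CPM in omental, 51.1, 53.6 and 77.1 CPM in pericardial, and 30.3, 40.6 and 59.5 CPM in perirenal fat. All depots overlapped in part, and 5 subcutaneous libraries were above every visceral one. The class difference was 0.45 ± 0.19 (log2, SE; edgeR adjusted p = 0.104), with 5 of 6 animals higher. Without IAT6, the lowest subcutaneous library, it was 0.54 and passed the test (adjusted p = 0.0267).

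miR-214 shares a long transcript with a miR-199a precursor in mammals. Its lowest, median and highest levels were 31.3, 49.3 and 76.2 CPM in back, 18.3, 64.8 and 680 CPM in sternal, and 23.7, 50.8 and 525 CPM in inguinal fat. They were 9.53, 34.2 and 74.5 CPM in omental, 12.9, 26.9 and 61.2 CPM in pericardial, and 20.6, 37.3 and 89.4 CPM in perirenal fat. Only SSAT1, IAT1 and SSAT4, at 680, 525 and 174 CPM, were above every visceral library, and the other 15 subcutaneous libraries lay within the visceral range.

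The fitted class difference of miR-214 was 1.49 ± 0.42 (log2, SE; edgeR adjusted p = 0.0145), and 5 of 6 animals were higher in subcutaneous fat. The difference in mean log2 CPM, in which high libraries weigh less, was 0.98. The call was lost with the animal as a block (0.95, adjusted p = 0.0551), without animal 1 (0.73, adjusted p = 0.122), without animal 4 (1.46, adjusted p = 0.0624) and without SSAT1 and IAT1 together (0.60, adjusted p = 0.170). It was also lost without the sternal depot (1.08, adjusted p = 0.0972), without the pericardial depot (1.32, adjusted p = 0.0894), with B libraries alone (given with the library letters), with limma on log2(RPM + 1) (0.76, adjusted p = 0.155) and with counts summed per animal and class, without the block (1.61, adjusted p = 0.133) or with it (0.97, adjusted p = 0.161). No single left-out library ended it (1.05 to 1.63). The class difference of miR-199b, by comparison, stayed between 1.40 and 1.58 whichever library or animal was left out.

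**Figure D2:**
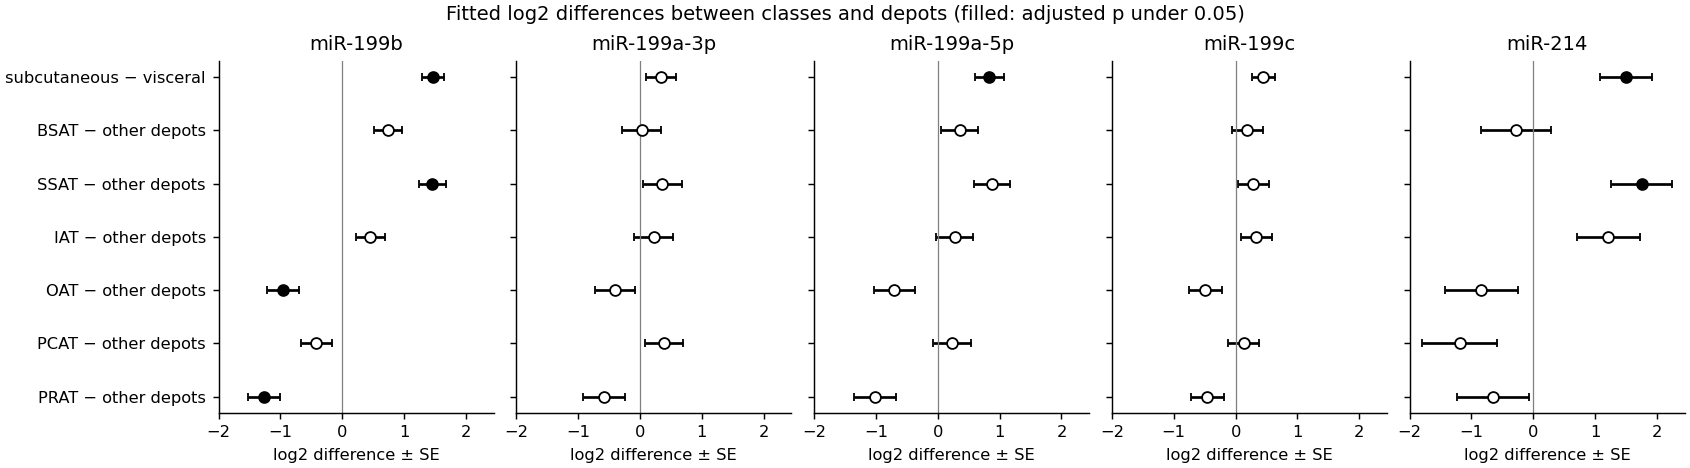
Fitted log2 differences with their SE (horizontal axis) for subcutaneous minus visceral fat and for each depot minus the mean of the other 5 depots (rows), with 1 panel per miRNA. Filled points passed the edgeR test at an adjusted p under 0.05; miR-199b has 4 filled points, miR-214 has 2, miR-199a-5p has 1, and miR-199a-3p and miR-199c have none.

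Summing the 4 miR-199 rows avoids the question of how near-identical reads were divided among them; this sum was chosen after the data were seen. The summed level had a median of 1590 CPM (845 to 3660) in subcutaneous and 857 CPM (552 to 1983) in visceral libraries. It was higher in subcutaneous fat by 0.88 ± 0.16 (log2, SE; edgeR adjusted p = 2.68e-04). Sternal fat was above the mean of the other depots by 0.98 ± 0.20 (adjusted p = 0.00247), and perirenal fat differed from it by -0.85 ± 0.23 (adjusted p = 0.0300).

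The make-up of the family also differed between libraries. miR-199b took a median of 58.3% of the summed miR-199 counts in subcutaneous libraries (26.1% to 75.7%) and 35.5% in visceral ones (20.9% to 64.4%). miR-199a-3p took 38.1% (21.4% to 68.5%) and 58.4% (29.7% to 73.6%). miR-199b exceeded miR-199a-3p in 13 of 18 subcutaneous and in 3 of 18 visceral libraries, while miR-199a-5p and miR-199c never took more than 1.75% and 7.32%.

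Ratios between members do not depend on the scaling of a library, so all 10 were compared within animals by an exact two-sided sign-flip permutation test over 6 animals, whose smallest possible p is 0.03125. The ratio of miR-199a-3p to miR-199b was lower in subcutaneous than in visceral fat by a mean log2 difference of -1.11 ± 0.60 (SD, n = 6; exact p = 0.03125), in 6 of 6 animals. That of miR-199b to miR-199c was higher by 1.0 ± 0.41 (SD, n = 6; exact p = 0.03125), in 6 of 6. That of miR-199a-5p to miR-199b differed by -0.56 ± 0.41 (SD, n = 6; exact p = 0.03125), again with 6 of 6 animals lower. These 3 ratios all hold miR-199b and were all at the smallest p the design allows, but Benjamini-Hochberg adjustment over the 10 exact p-values gave 0.104 for each, so 0 of 10 passed. With 6 animals a ratio can pass this adjustment only if most of the 10 are at the smallest p. The adjusted result therefore cannot decide whether a single ratio differs.

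Each library name holds the letter A or B, with no explanation in the labels, and 8 libraries carry A: 7 visceral ones and BSAT4. The log2 ratio of miR-199a-3p to miR-199b was 0.59 to 1.82 in the 8 A libraries, with a median of 1.19. It was -1.82 to 0.62 with a median of -0.69 in the 17 subcutaneous B libraries, and -1.12 to 1.05 with a median of 0.23 in the 11 visceral B libraries. The A libraries were therefore high in this ratio, and the letter is uneven between the classes. Over B libraries alone the mean class difference of the ratio was -0.87. With B libraries alone miR-199b and miR-199a-5p were still called higher in subcutaneous fat, the latter by 1.25 (edgeR adjusted p = 0.0118), and miR-214 was not (1.45, adjusted p = 0.125). The class difference of miR-199a-3p was 0.54 with B libraries alone (adjusted p = 0.240). With the letter as covariate it was 0.61 (adjusted p = 0.0815), and neither was called.

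The arms of the miR-199a hairpin differed widely in level. The 3p row exceeded the 5p row in every library, by a log2 ratio of 4.06 to 7.09 with a median of 5.39. Its mean was 5.08 in subcutaneous and 5.62 in visceral fat, a difference of -0.54 ± 0.52 (SD, n = 6; exact sign-flip p = 0.0625, adjusted 0.104). The direction held in 5 of 6 animals, so a difference in arm ratio between the classes was not detected.

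The second question was which depots carry these differences. An F test over the 6 depots called miR-199b (adjusted p 3.07e-06), miR-214 (adjusted p = 0.0386) and miR-199a-5p (adjusted p = 0.0426), 3 of 5 members where 13.9% of all features were called (edgeR). miR-199c (adjusted p = 0.350) and miR-199a-3p (adjusted p = 0.479) were not called. The call of miR-214 was lost in 12 of 52 alternatives. Among them were the animal as a block (adjusted p = 0.203) and the library letter as covariate (adjusted p = 0.122). It was also lost without animal 1, 4 or 5, or without SSAT1 or SSAT4 (adjusted p 0.0653 to 0.302). The call of miR-199a-5p was lost in 28 of 52 alternatives, among them the omission of any of the 6 animals.

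Each depot was then compared with the mean of the remaining 5. Of the 30 tests of members 4 were called, where 4.27% of all such tests were: 9.3% in sternal, 1.5% in omental, 9.15% in pericardial and 3.15% in perirenal fat. In sternal fat miR-199b was higher by 1.46 ± 0.21 (log2, SE; edgeR adjusted p 1.75e-05), in 6 of 6 animals. In perirenal fat it differed by -1.27 ± 0.26 (edgeR adjusted p = 0.00261), lower in 6 of 6 animals. In omental fat it differed by -0.96 ± 0.26 (edgeR adjusted p = 0.0455), lower in 5 of 6 animals. The sternal call held in every alternative run. The perirenal call was lost in 1 of 52, with B libraries alone (-1.18, adjusted p = 0.176). The omental call was lost in 35 of 52, among them the omission of 28 of the 36 libraries (-0.94 to -0.77 in these) and of 4 of the 6 animals, and the fit with the animal as a block (-1.0, adjusted p = 0.0684).

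The fourth call was miR-214 in sternal fat, higher by 1.75 ± 0.49 (log2, SE; edgeR adjusted p = 0.0243) in 4 of 6 animals. This call was lost in 9 of 52 alternatives. The difference was 0.54 without SSAT1 (adjusted p = 0.646) and 1.12 with the animal as a block (adjusted p = 0.106). It was also not called without SSAT4 (1.75, adjusted p = 0.0626), animal 1 (0.96, adjusted p = 0.156) or animal 4 (1.78, adjusted p = 0.0811). Further losses were with B libraries alone (1.71, adjusted p = 0.0874) and with limma on log2(RPM + 1) (0.79, adjusted p = 0.344). In inguinal fat, which held the other very high library, miR-214 differed by 1.21 ± 0.51 and was not called (adjusted p = 0.589). miR-199a-5p stood at 0.87 ± 0.29 in sternal fat (adjusted p = 0.0541) and at -1.02 ± 0.34 in perirenal fat (adjusted p = 0.102), short of the threshold in both. In back fat miR-199b stood at 0.74 ± 0.22 and was not called (adjusted p = 0.0723), though higher in 6 of 6 animals. Pericardial fat had no called member, with miR-199b at -0.42 ± 0.25 (adjusted p = 0.361) and miR-199a-3p at 0.38 ± 0.31 (adjusted p = 0.544). There miR-214 stood at -1.19 ± 0.61 (adjusted p = 0.257), lower in 6 of 6 animals.

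By mean log2 CPM the depots ran SSAT, BSAT, IAT, PCAT, OAT, PRAT for both miR-199b and miR-199a-5p. For miR-199c the order was SSAT, IAT, BSAT, PCAT, PRAT, OAT, and for miR-214 it was SSAT, IAT, BSAT, PRAT, OAT, PCAT. For miR-199a-3p, pericardial fat came first, before IAT, SSAT, BSAT, OAT and PRAT. No 2 neighbours in any of these orders passed the edgeR test; the smallest adjusted p between neighbours was 0.221, for miR-199b in inguinal over pericardial fat. The orders are of mean log values, and for miR-199a-3p and miR-199c the fitted difference between inguinal and sternal fat had the opposite sign.

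Over the 15 pairs of depots, 8 of 75 tests of members were called, where 2.83% of all such tests were. All 8 set a subcutaneous depot above a visceral one, and 6 were of miR-199b. The largest of these 6 was in sternal over perirenal fat, at 2.27 ± 0.32 (log2, SE; edgeR adjusted p 2.34e-05), and sternal over omental fat followed at 2.01 ± 0.32 (adjusted p 6.93e-05). Back fat was above perirenal fat by 1.67 ± 0.31 (adjusted p = 0.00419) and above omental fat by 1.42 ± 0.31 (adjusted p = 0.00893). Sternal over pericardial fat was 1.56 ± 0.31 (adjusted p = 7.78e-04) and inguinal over perirenal fat 1.44 ± 0.31 (adjusted p = 0.0375). The latter was not called with the animal as a block (adjusted p = 0.0531) or without any 1 of 8 libraries (IAT1, IAT2, IAT5, OAT2, PRAT1, PRAT2, PRAT3 or PRAT4). Back over omental fat was not called without BSAT3 (1.13, adjusted p = 0.0650) or OAT6 (1.18, adjusted p = 0.05005).

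The remaining pairs were miR-199a-5p in sternal over perirenal fat, at 1.57 ± 0.41 (log2, SE; edgeR adjusted p = 0.0192), and miR-214 in sternal over pericardial fat, at 2.46 ± 0.75 (adjusted p = 0.0272). Neither was called without its highest library: miR-199a-5p was at 1.03 without SSAT2 (adjusted p = 0.0887) and miR-214 at 1.31 without SSAT1 (adjusted p = 0.223). Between back and pericardial fat miR-199b differed by 0.96 ± 0.31 and just missed the threshold (adjusted p = 0.0518).

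The third question was how much the members varied between animals. Depot accounted for 73.3% of the variation of log2 CPM of miR-199b, animal for 1.31%, and the rest was 25.4%. For miR-199a-3p the shares were 15.3% for depot and 35.3% for animal, and for miR-214 they were 18.8% and 34.6%. miR-199a-5p lay between, at 39.3% and 21.9%, and miR-199c had most of its variation outside both, at 21.8% and 9.03%. The medians over all 667 features were 18.6% for depot and 20.0% for animal, so miR-199a-3p and miR-214 were nearer the typical depot share than miR-199b was.

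**Figure D3:**
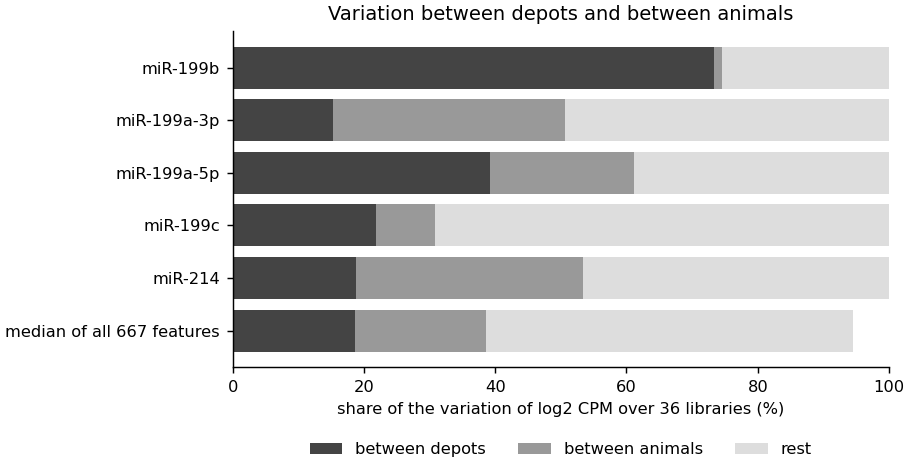
Share of the variation of log2 CPM over 36 libraries (horizontal axis, %) that lies between depots, between animals and in the rest, for each row and as the median over all 667 tested features (3 separate medians, so that bar does not reach 100%). miR-199b has 73.3% between depots and 1.31% between animals, and miR-199a-3p has 15.3% and 35.3%.

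The animals that stood high were not the same for each row. For miR-199a-3p the median over 6 depots was highest in animal 2 (888 CPM) and animal 4 (733 CPM) and lowest in animal 1 (329 CPM). For miR-214 animal 1 was highest, with a median of 75.3 CPM, and animal 6 lowest, with 24.4 CPM. For miR-199b the medians of the animals ran only from 458 to 604 CPM. Animal 1 was therefore lowest in miR-199a-3p and highest in miR-214. A miR-199a precursor shares a transcript with miR-214 in mammals, but the row names do not say which precursor gave the reads.

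**Figure D4:**
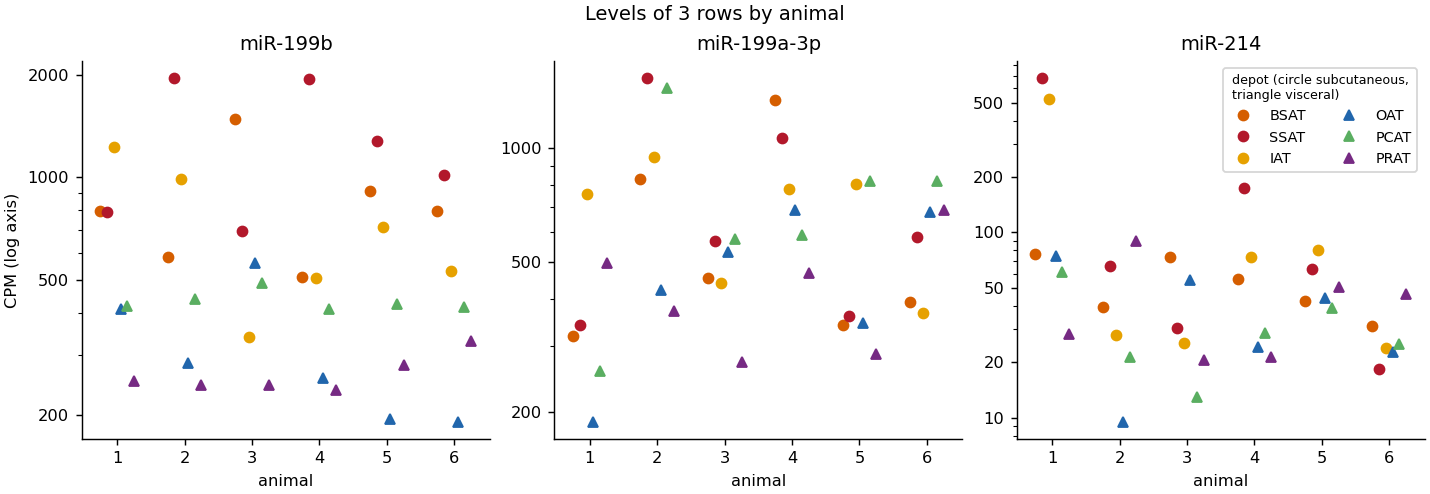
Levels of miR-199b, miR-199a-3p and miR-214 in CPM (log axis) for each of the 6 animals, with circles for subcutaneous and triangles for visceral libraries. Animal 1 holds the 2 highest miR-214 libraries, 680 and 525 CPM, and its median of miR-199a-3p, 329 CPM, is the lowest of the 6 animals.

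The members were next compared across the 36 libraries. The correlations of log2 CPM that follow describe libraries that share animals, depots and scaling, and carry no test. The arms of miR-199a moved together most, with r = 0.74 over 36 libraries, and none of the 204 other bovine-named features of at least 10 CPM was more like either arm. miR-199c followed miR-199a-3p with r = 0.70, and miR-199a-5p followed miR-199b with r = 0.63. With depot means removed, the former was 0.66 and the latter 0.32. miR-199a-3p and miR-199b had r = 0.30 and, with depot means removed, 0.13; which arm the miR-199b row counts is not given by its name.

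miR-214 did not follow miR-199a. Its r was -0.02 with miR-199a-3p and 0.11 with miR-199a-5p, and 118 and 83 of the 204 other features were more like miR-214 than these arms were. Without animal 1 these values were 0.19 and 0.22. With depot and animal means both removed they were 0.22 and 0.21, below the 0.61 between the arms of miR-199a. Its r with miR-199b was 0.46.

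The features most like miR-214 were miR-152 (r = 0.79), miR-195 (r = 0.76), miR-148c (r = 0.69), miR-30f (r = 0.64) and miR-3596 (r = 0.63), over 36 libraries. These rest in part on animal 1: miR-152 was at 2474 CPM in SSAT1 and 1213 CPM in IAT1, against 48.9 to 1091 CPM in the other libraries. miR-195 was at 8877 and 4702 CPM there, against 334 to 2597 CPM elsewhere. miR-148c was at 831 CPM in SSAT1 and 142 CPM in IAT1, against 7.09 to 284 CPM elsewhere. Without animal 1 the r of miR-214 with miR-152 was 0.60, with miR-195 0.56 and with miR-148c 0.48.

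Both of these libraries were thus high in miR-214 together with several other miRNAs, but within the usual range of miR-199a-3p and miR-199b. SSAT1 had 340 CPM of miR-199a-3p and 790 CPM of miR-199b, and IAT1 had 758 and 1227 CPM, where the other 34 libraries ran from 189 to 1533 CPM and from 192 to 1955 CPM. The summed stroma and smooth muscle rows were 47229 CPM in SSAT1, the lowest of the subcutaneous libraries, and 69189 CPM in IAT1. Their part in the miR-214 result was not tested beyond leaving the libraries out.

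The features most like miR-199a-5p were miR-497 (r = 0.64), miR-3604 (r = 0.61), miR-2285aj-5p (r = 0.57), miR-30b-5p (r = 0.55) and miR-365-3p (r = 0.53). For miR-199b, named after its values were seen, the nearest feature was miR-23a (r = 0.90, and 0.78 with depot means removed). miR-23a is made from a cluster shared with miR-27a and was higher in subcutaneous fat by 1.73 ± 0.21 (log2, SE; edgeR adjusted p 2.67e-07). miR-199c, also named afterwards, was nearest to miR-99a-5p (r = 0.77).

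**Figure D5:**
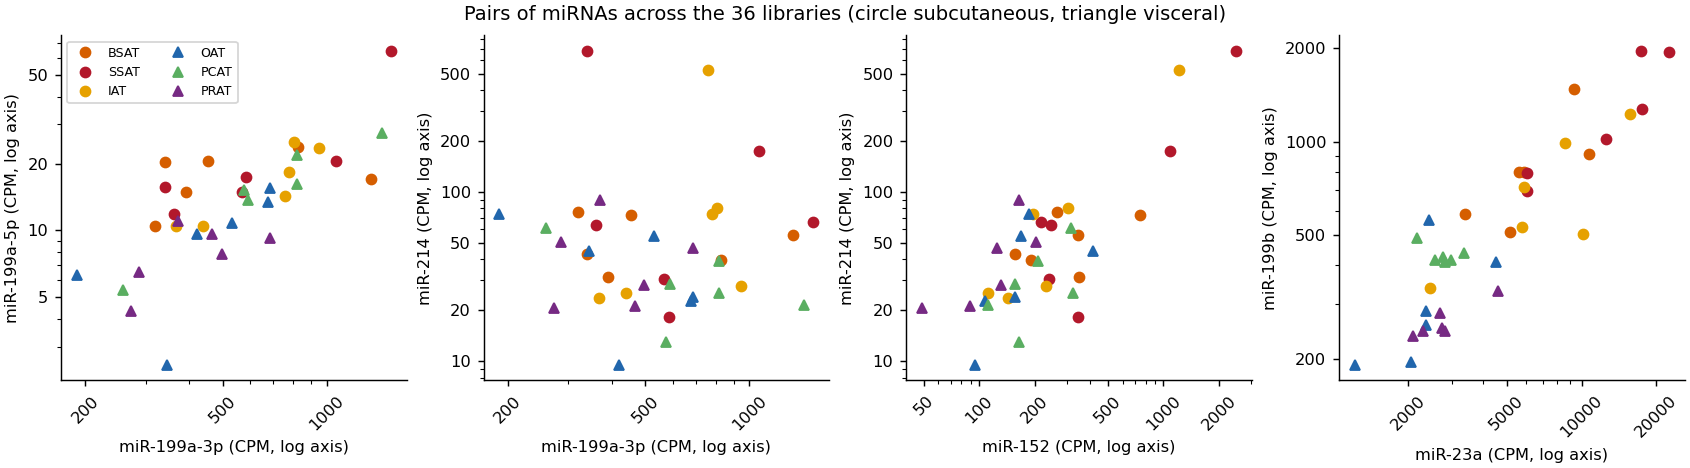
Levels in CPM (both axes logarithmic) of 4 pairs of miRNAs in the 36 libraries, with circles for subcutaneous and triangles for visceral libraries. The arms of miR-199a (r = 0.74) and miR-199b with miR-23a (r = 0.90) fall along a band; miR-214 with miR-199a-3p (r = -0.02) does not, and miR-214 with miR-152 (r = 0.79) is drawn out by SSAT1 and IAT1.

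Other miRNAs known from the same cells were set beside the members; over all features 16.5% were called between the classes, and the median was -0.09. In a list of stroma and smooth muscle miRNAs, 3 of 11 tested rows were called, all higher in subcutaneous fat, beside 7.2% called higher over all features, with a median log2 difference of 0.22. These were miR-22-5p (0.72 ± 0.11, edgeR adjusted p 1.69e-05), miR-152 (1.41 ± 0.34, adjusted p = 0.00484) and miR-100 (0.44 ± 0.13, adjusted p = 0.0189). miR-22-3p, the other arm of the miR-22 hairpin, stood at -0.01 ± 0.12 and was not called. Its mean was 4315 CPM, against 233 CPM for miR-22-5p. miR-143, the smooth muscle miRNA and the most abundant of the list, stood at 0.02 ± 0.18, and miR-145, its cluster partner, at 0.46 ± 0.36, neither called.

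In a list of miRNAs related to fibrosis, 1 of 7 was called, with a median of -0.15. It was miR-132, higher in subcutaneous fat (0.58 ± 0.20, edgeR adjusted p = 0.0422). miR-21-5p, which is raised in many fibrotic tissues, stood at -0.27 ± 0.30, and miR-29a, a repressor of collagen genes, at 0.02 ± 0.12, neither called.

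In a list of miRNAs known to slow the formation of fat cells, 4 of 11 were called higher and 1 lower, with a median of -0.31. The 4 with the smallest p were miR-224 (1.01 ± 0.17, edgeR adjusted p 1.20e-04), miR-27a-3p (0.81 ± 0.15, adjusted p 1.96e-04), miR-27a-5p (1.76 ± 0.33, adjusted p 2.98e-04) and miR-27b (0.51 ± 0.15, adjusted p = 0.0145). miR-138 was the lower one, at -1.60 ± 0.48 (adjusted p = 0.0191). In a list of adipocyte miRNAs 1 of 9 was higher, miR-103 (0.52 ± 0.14, adjusted p = 0.0125), and 1 lower, miR-335 (-1.15 ± 0.41, adjusted p = 0.0481), with a median of 0.52.

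Markers of other cell types were also compared between the classes, where 9.3% of all features were called lower in subcutaneous fat. In a leukocyte list 3 of 7 rows were called, all lower, with a median of -0.96: miR-142-3p at -2.51 ± 0.65 (edgeR adjusted p = 0.00821), miR-142-5p at -1.93 ± 0.55 (adjusted p = 0.0145) and miR-146a at -0.96 ± 0.33 (adjusted p = 0.0436). Of the rows not called, miR-150, the most abundant of the list with a mean of 6689 CPM, stood at -0.98 ± 0.36 (adjusted p = 0.0587). miR-155 stood at -0.92 ± 0.37, while miR-223 and miR-342 went the other way, at 0.45 ± 0.29 and 0.18 ± 0.20. The summed level of the leukocyte list was 1994 to 28128 CPM in subcutaneous and 3903 to 48302 CPM in visceral libraries. In an epithelial and mesothelial list 5 of 6 were called, all lower in subcutaneous fat, with a median of -3.29, led by miR-200b and miR-200a at -5.42 ± 1.0 and -5.16 ± 0.95 (adjusted p 2.68e-04 for both). The row not called, miR-183, went the other way, at 1.01 ± 0.47 (edgeR adjusted p = 0.135). The summed level of that list was 5.92 to 79.3 CPM in subcutaneous and 6.56 to 2817 CPM in visceral libraries, with no row at 0 in all libraries of either class.

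The remaining lists were of endothelial, erythroid and muscle miRNAs. In the endothelial list (miR-126, both arms) 0 of 2 rows were called by edgeR, with a median of 0.37; 1 had an unadjusted p under 0.05, and DESeq2 called 1 and limma 0. In the erythroid list 0 of 3 were called by edgeR, DESeq2 or limma, 0 had an unadjusted p under 0.05, and the median was -0.31. The summed erythroid level was 8231 to 185650 CPM in subcutaneous and 17231 to 93269 CPM in visceral libraries. In the muscle list 1 of 6 was called, miR-499 at -0.73 ± 0.24 (adjusted p = 0.0363), with a median of -0.26. Of the rows not called, miR-1, miR-133a and miR-133b stood at -1.05 ± 0.51, -0.37 ± 0.64 and -0.14 ± 0.69. miR-206 and miR-208b went the other way, at 0.41 ± 0.63 and 0.90 ± 0.90. The summed muscle level was 23.6 to 2949 CPM in subcutaneous and 50.8 to 1296 CPM in visceral libraries. The part of these cell types in the differences of miR-199b, miR-199a-5p and miR-214 was not tested.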

How the data were processed

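The authors deposited raw counts of reads for each miRNA in each library, and the same values as RPM, scaled to a common total; the deposited RPM differed from the scaled count by at most 4.79e-06. Aligner, miRNA caller and build: not given in the sources used here. The submitters' processing notes name DESeq2 1.24.0 without a role. One blank row, with 0 counts, was dropped.

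The test was edgeR 4.0.16's quasi-likelihood test, in R 4.3.3 (robust glmQLFit, TMM factors 0.745 to 1.26, filterByExpr with a minimum count of 10, 1 coefficient per depot, 30 residual degrees of freedom). The class comparison was the mean of 3 subcutaneous minus the mean of 3 visceral depots. All tests were two-sided, with Benjamini-Hochberg adjustment over all 667 features and a threshold of 0.05. Each SE was obtained as the log2 difference over the root of its F statistic. log2 CPM used a prior count of 2, and ratios of counts added 0.5 to each.

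All depots come from the same 6 animals, which pairs the libraries: deviations from depot means correlated by 0.198 on average within and by -0.0392 between animals, and 64 of 90 pairs within an animal exceeded 0.1. The fits without an animal term treat libraries of 1 animal as independent. No library repeated another within counting noise (smallest chi-square per degree of freedom 912).

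Named were all members, the 5 features most like miR-199a-5p and miR-214, and up to 4 called members of each of the 9 lists by smallest p; other names were added after their values were seen. The members and lists were chosen with earlier results of these data known. Alternatives included RLE factors, library totals, other filters, the library letter, animal as a block, limma 3.58.1 on log2(RPM + 1), DESeq2 1.42.0, counts summed per animal and class, and leaving out animals, depots or libraries. The class comparison of the main fit was run on simulated data. These held independent libraries without an animal effect, so that run does not bear on the pairing or on the other fits. Only names and counts of the miRNAs were used here, and no sequence or coordinate.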

Additional observations from a re-analysis of the deposited data

Results flagged for a closer look

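A library far from the others of its depot was looked for in all 30 pairs of a member and a depot. Dixon's test at the 95% level was run on CPM, not on log2 CPM, and 4 of 30 passed. Chance alone passes about 5% of groups only if the values are normally distributed, which was not checked for CPM. High values stand further apart on this scale than on the log scale, so the 4 cannot be set against that rate. miR-214 was at 680 CPM in SSAT1, where the other 5 sternal libraries ran from 18.3 to 174 CPM. It was at 525 CPM in IAT1, where the other inguinal libraries ran from 23.7 to 80.0 CPM. Both libraries are of animal 1. miR-199a-5p was at 64.2 CPM in SSAT2, where the others ran from 11.8 to 20.5 CPM. miR-199b was at 491 CPM in PCAT3, where the other pericardial libraries ran from 410 to 439 CPM.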

How the results depend on the processing

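miR-199b kept its class call and its sternal call in every alternative. Of 58 alternatives, 6 ended the class call of miR-199a-5p and 10 that of miR-214. The number of members called between the classes, 3, was 1 without the sternal depot, with limma on RPM, and with counts summed per animal and class, without or with the replicate block; with each animal or library left out it ran from 2 to 4. The F test called 1 member in place of 3 with library totals alone, without the filter, with letter B libraries alone and with limma (1 to 3 with an animal or library left out). Calls of 1 depot against the rest, 4, fell to 2 with the animal as a replicate block and with letter B alone (2 to 5 with an animal or library left out; 2 without animal 4 or SSAT4). Pairwise calls were 7 with the block. No ratio passed with another pseudocount or with letter B alone, where passing would again need most of the ratios at the smallest p. With an animal left out, 5 animals cannot give a p under 0.0625, so those fits do not bear on whether a ratio passes. The ratio of miR-199a-5p to miR-214 differed by -0.14 between the classes, but by 0.14 without animal 1 and 0.09 without animal 4 (-0.35 to 0.14 over the 6 omissions). Over all features, 110 calls became 71 with the letter as covariate, 39 with letter B alone, 30 without the sternal and 58 without the pericardial depot, 23 with summed counts and 46 with these and the block (56 to 129 with an animal or library left out). The split of these calls, 48 higher and 62 lower, was 26 and 112 with library totals and 22 and 92 with limma, where the median of all features moved from -0.09 to -0.29 and -0.18. The planned sum by arm was not run, since some names carry no arm; the sum of 4 miR-199 rows replaced it. Among the members, the animal as a block ended no class call but that of miR-214. The causes of these changes were not tested. Counting error is largest for miR-199a-5p, at 30 to 734 counts a library, and these counts were not corrected for reads shared between rows.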
